A study of Homo sapiens with 18 samples.

Results

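The results below describe 10 genes whose products detect stalled ribosomes, take them apart and deal with what is left: ZNF598, GCN1, MAP3K20, PELO, HBS1L, ASCC3, GIGYF2, EIF4E2, NEMF and LTN1. They were chosen by name for their known roles, with earlier results of these data known. All 10 were among the 17017 gene symbols of the deposited table. The cells were MDA-MB-231, an established human breast carcinoma line, transduced with lentiviral particles that carried a short hairpin against the mRNA of fibrillarin (FBL, the nucleolar enzyme that methylates ribosomal RNA) or a scramble sequence. The groups were SC, read here as the scramble control, and the hairpin treatments SH2 and SH3, each with 3 replicates of input cytoplasmic RNA (IN) and 3 of ribosome-protected footprints (RPF), 18 libraries in all. The labels speak of knockdown 1 and 2 and do not say which of these is SH2 or SH3. All groups had been selected in puromycin, a drug that releases unfinished peptides, and moved to fresh medium the day before lysis. All were also treated with cycloheximide, which holds elongating ribosomes in place, shortly before lysis. Nothing in the labels says that the replicates came from separate transductions, so the tests measure the spread between these libraries.

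When a ribosome stops and the next one runs into it, the collided pair forms a surface that several proteins read. The ubiquitin ligase ZNF598 marks the small subunits of such pairs, GCN1 sits on them and activates the kinase GCN2, and the kinase MAP3K20 (also called ZAK) starts the ribotoxic stress response through p38 and JNK. The helicase ASCC3 and the pair PELO and HBS1L separate the subunits, GIGYF2 and the cap-binding protein EIF4E2 shut off new initiation on the same mRNA, and NEMF with the ubiquitin ligase LTN1 labels the unfinished protein for degradation. Footprint counts of these genes report ribosomes on their own mRNAs, relative to the other genes of a library, not how many collisions took place. Scaled to library size, they cannot show a change in the total amount of translation.

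The RNA of 4 of the 10 genes was called in the same direction with both hairpins: ZNF598, GIGYF2 and EIF4E2 were higher and MAP3K20 was lower than in SC. Their promoters are shown because of that shared direction, as the 250 bases before the start given by RefSeq (GRCh38.p14), 5′ to 3′ on the gene's strand. The windows are chr16:2009822-2010071 on the minus strand for ZNF598, and on the plus strand chr2:232697081-232697330 for GIGYF2, chr2:232550439-232550688 for EIF4E2 (the first of 2 starts listed) and chr2:173075596-173075845 for MAP3K20. Capitals mark the letters CGGAAG (the core of ETS factor motifs) or their reverse complement CTTCCG.
ZNF598: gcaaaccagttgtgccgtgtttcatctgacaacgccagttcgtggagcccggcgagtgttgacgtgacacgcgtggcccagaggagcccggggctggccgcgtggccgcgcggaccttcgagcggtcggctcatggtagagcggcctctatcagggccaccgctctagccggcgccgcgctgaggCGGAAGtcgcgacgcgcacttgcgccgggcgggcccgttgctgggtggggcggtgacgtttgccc
GIGYF2: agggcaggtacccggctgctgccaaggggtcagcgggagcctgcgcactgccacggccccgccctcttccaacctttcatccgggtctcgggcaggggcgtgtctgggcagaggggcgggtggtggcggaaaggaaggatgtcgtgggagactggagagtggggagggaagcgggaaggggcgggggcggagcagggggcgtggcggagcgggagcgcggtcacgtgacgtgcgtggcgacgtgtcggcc
EIF4E2: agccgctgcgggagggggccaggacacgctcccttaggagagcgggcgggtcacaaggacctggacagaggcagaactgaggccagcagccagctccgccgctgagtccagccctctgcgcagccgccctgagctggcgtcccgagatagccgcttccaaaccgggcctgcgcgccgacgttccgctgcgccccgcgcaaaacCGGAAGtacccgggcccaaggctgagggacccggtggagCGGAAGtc
MAP3K20: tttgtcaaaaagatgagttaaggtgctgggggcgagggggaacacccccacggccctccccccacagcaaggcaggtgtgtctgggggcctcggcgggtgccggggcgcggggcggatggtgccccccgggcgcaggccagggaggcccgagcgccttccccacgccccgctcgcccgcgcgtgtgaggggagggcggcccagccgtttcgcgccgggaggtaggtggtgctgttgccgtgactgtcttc
The ZNF598 window held CGGAAG once, 65 bases before the start, and the EIF4E2 window held it at 47 and 8 bases before the start. GIGYF2 and MAP3K20 had no match in this window. RefSeq promoters were matched for 9 of the 10 genes (ASCC3 was not matched), and 4 of the 9 held CGGAAG on either strand (EIF4E2, GCN1, ZNF598 and LTN1), against 21.8% of the 19100 promoters of genes in the table. The other motifs searched on both strands were TGACGT (the core of the cyclic AMP response element) in 3 of 9 against 8.36%, GGGCGG (GC box) in 4 of 9 against 57.6%, CCAAT in 2 of 9 against 32.8% and CACGTG (E-box) in 1 of 9 against 7.66%. The CACGTG of GIGYF2 overlapped its TGACGT. None of the 10 member starts began with a C followed by 4 pyrimidines, the start of mRNAs with a terminal oligopyrimidine tract, against 4.83% of starts of genes in the table. In the motif counts a member counts once if any of its listed promoters has a match, while the background is a share of promoters. Matches are counts of letters and were not tested for binding.

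The input RNA libraries held 23469830 to 27629488 counts each. The footprint libraries were shallower, with 1662705 to 6098648 counts, so footprint values are less precise. FBL, the targeted gene, was at 349 to 421 CPM (library-scaled counts, defined below) in SC input RNA, at 1.3 to 11.2 CPM in SH2 and at 3.0 to 4.2 CPM in SH3. Its RNA was lower by edgeR with both hairpins (log2 change -6.08 and -6.80). VIM, CD44, KRT18, AXL and EGFR, markers of this line, were present. ESR1, PGR and EPO had at most 2 counts in any library and CDH1 at most 11, while ERBB2 was read at 79.2 to 104 CPM in input RNA. The other genes looked up as low in this line or as markers of other cells were not absent. EPCAM, PECAM1 and COL1A1 had reads in every library of both kinds. PTPRC had input RNA reads in every library, but footprint reads only in the SH2 libraries and SC replicate 3. The spread between replicates, as edgeR's biological coefficient of variation, was 11.6% for RNA and 15.1% for footprints.

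Levels below are CPM, counts scaled to a common library size with TMM factors within a library kind and not by gene length, so they are compared between samples and not between genes. Values are given in the order of replicates 1, 2 and 3. "Called" means an adjusted p under 0.05 in edgeR's quasi-likelihood test over all genes tested, and changes are log2 changes against SC with their standard error (SE). Both hairpin comparisons use the same SC libraries, so their values stand side by side and are not independent of each other. Among all 12710 genes tested in RNA, 61.4% were called in SH2 (31.1% higher, 30.4% lower) and 53.0% in SH3 (27.8% higher, 25.2% lower). Of the 10 genes here, 7 were called in SH2 (4 higher, 3 lower) and 5 in SH3 (4 higher, 1 lower), shares near that background. Among 10345 genes tested in footprints, 44.2% were called in SH2 (21.0% higher, 23.2% lower) and 35.9% in SH3 (16.9% higher, 19.0% lower). There 4 of the 10 genes were called in SH2 (3 higher, 1 lower) and 5 in SH3 (4 higher, 1 lower). The median log2 RNA change of the 10 was 0.09 in SH2 and 0.15 in SH3, beside 0.01 and 0.03 over all genes. For footprints it was 0.15 and 0.28, beside 0.00 and -0.01.

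**Figure D1:**
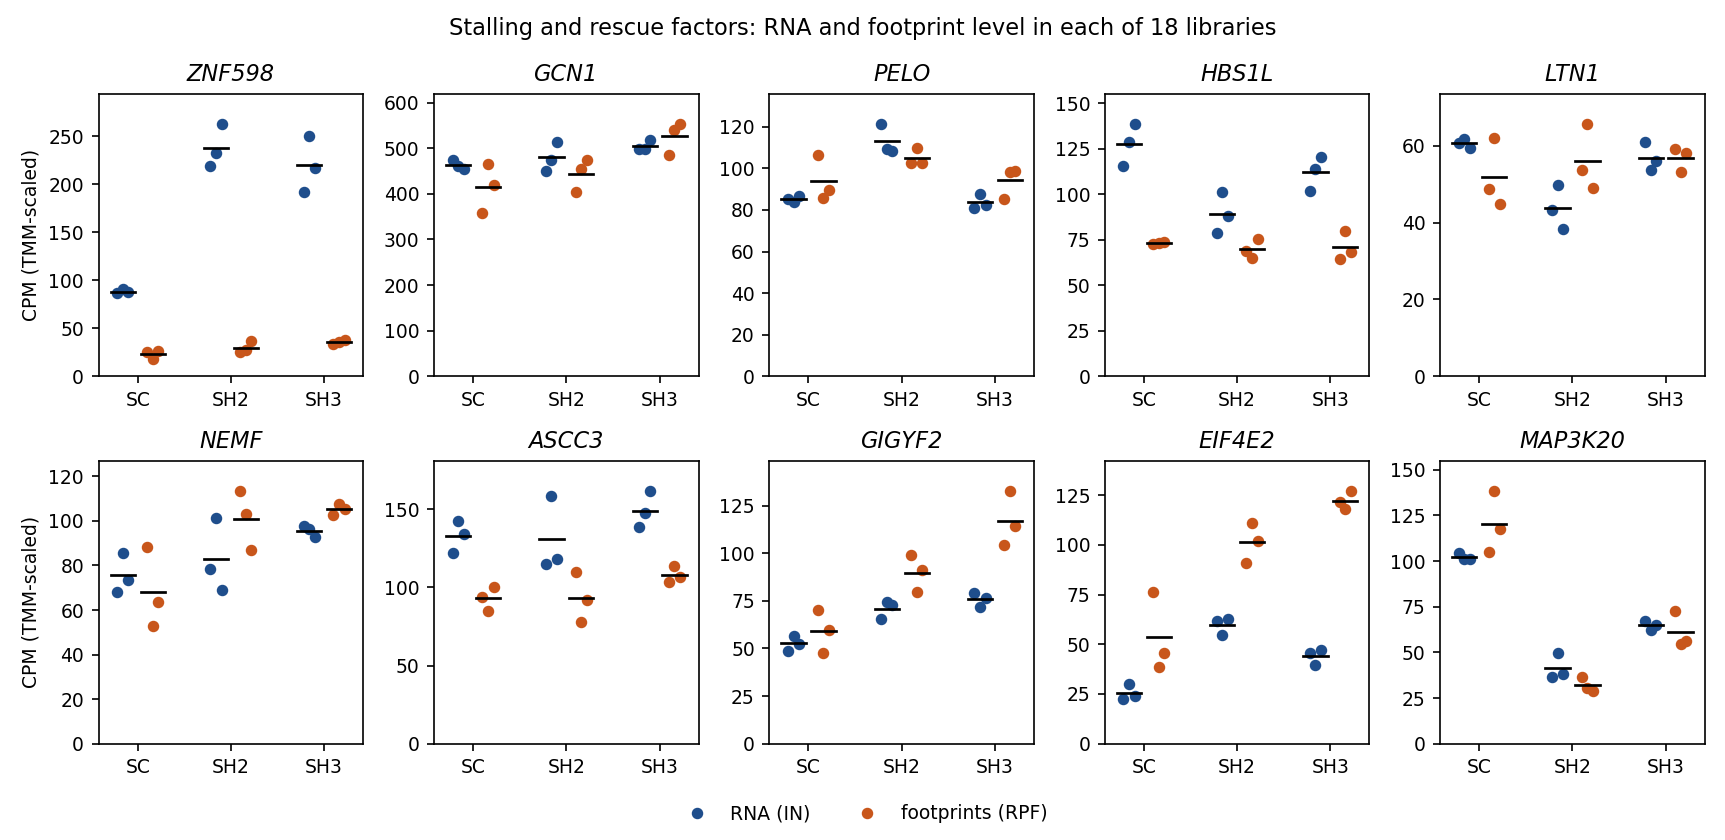
RNA (blue) and footprint (orange) levels of the 10 genes in CPM on the vertical axis of each panel, for SC, SH2 and SH3 on the horizontal axis. Points are single libraries and bars are group means (n = 3). ZNF598 RNA in SH2 and SH3 (192 to 263 CPM) lies above SC (86.5 to 90.4 CPM) while its footprints stay below 38 CPM, and MAP3K20 is lower in both library kinds.

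The sensor ZNF598 had the largest RNA rise of the 10 genes in both hairpins. Its RNA was at 86.5, 90.4 and 87.5 CPM in SC, at 219, 233 and 263 CPM in SH2, and at 192, 251 and 217 CPM in SH3. Every hairpin library lay above every SC library. The RNA rose 2.70-fold in SH2 (log2 change 1.43, SE 0.11, edgeR adjusted p = 1.76e-07) and 2.50-fold in SH3 (log2 change 1.32, SE 0.11, adjusted p = 8.09e-07). Footprints did not follow by that amount. They were at 25.3, 18.1 and 26.1 CPM in SC, at 25.2, 27.0 and 36.6 CPM in SH2, and at 33.4, 35.3 and 37.9 CPM in SH3. SH2 footprints overlapped SC and SH3 footprints lay above it. The footprint change was 0.32 (SE 0.19, edgeR adjusted p = 0.189) in SH2. In SH3 the footprints were called higher at 0.59 (SE 0.20, adjusted p = 0.0274), a call that was lost without SH3 replicate 2 (adjusted p = 0.0696), SH3 replicate 3 (0.0898) or SC replicate 2 (0.0688). These footprint values rest on 43 to 156 reads per library.

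Translational efficiency is the footprint change minus the RNA change of a gene, tested as an interaction over all 18 libraries. For ZNF598 it was lower in SH2 by edgeR (log2 change -1.14, SE 0.21, adjusted p = 0.00412), while 3.90% of the 12531 genes tested were called in that comparison and 2.46% were called lower. That background moved with single libraries, from 489 genes called to 110 without SH2 replicate 3, 140 without SC replicate 3 and 195 without SH2 replicate 1, and DESeq2 called 910. ZNF598 was the single one of the 10 genes called, and its call held with each replicate left out in turn (adjusted p = 0.00227 to 0.0455). With IN and RPF libraries matched by replicate number, its log2 ratio of footprint to RNA CPM was -1.77, -2.32 and -1.75 in SC. In SH2 it was -3.12, -3.11 and -2.85, so the groups did not overlap. In SH3 the ratio was -2.53, -2.83 and -2.52, also below SC, and the change of -0.73 (SE 0.21) was not called by edgeR (unadjusted p = 0.00233, adjusted p = 0.12) but was called by DESeq2 (adjusted p = 0.031). With the footprint libraries thinned to a common depth, the SH2 change was -0.88 and fell just outside the call (edgeR adjusted p = 0.0507). The test between hairpins gave -0.41 (SE 0.21, adjusted p = 0.463). Already in SC, ZNF598 had the lowest footprint-to-RNA ratio of the 10 genes, at percentile 6.71 of 10319 genes.

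GCN1 was the most even of the sensors. Its RNA was at 475, 460 and 454 CPM in SC, at 451, 475 and 514 CPM in SH2, and at 499, 499 and 518 CPM in SH3. The RNA changes were 0.05 (SE 0.09 by edgeR, adjusted p = 0.613) in SH2 and 0.13 (SE 0.09, adjusted p = 0.233) in SH3. SH3 libraries lay just above SC and SH2 libraries overlapped it. GCN1 footprints were at 359, 465 and 419 CPM in SC, at 404, 454 and 475 CPM in SH2, and at 485, 540 and 554 CPM in SH3. The SH3 footprint libraries lay above SC, and the change of 0.35 (SE 0.13) did not pass (edgeR adjusted p = 0.053). It did pass without SH3 replicate 1 (adjusted p = 0.0464), without SC replicate 2 (0.0216) and with DESeq2 (0.0383).

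MAP3K20, the kinase that starts ribotoxic stress signalling, was the only one of the 10 genes called lower with both hairpins in both library kinds. Its RNA was at 105, 101 and 101 CPM in SC, at 36.5, 49.7 and 38.1 CPM in SH2, and at 67.3, 62.2 and 65.2 CPM in SH3. The 3 groups did not overlap, with SC highest and SH2 lowest. RNA fell to 40.5% of the SC mean in SH2 (log2 change -1.30, SE 0.11, edgeR adjusted p = 5.04e-07) and to 63.4% in SH3 (log2 change -0.66, SE 0.11, adjusted p = 0.000246). Footprints were at 105, 138 and 118 CPM in SC, at 36.7, 30.5 and 28.8 CPM in SH2, and at 72.6, 54.8 and 56.1 CPM in SH3, in the same order of groups. They fell to 26.6% of the SC mean in SH2 (log2 change -1.91, SE 0.17, edgeR adjusted p = 8.08e-07) and to 50.9% in SH3 (log2 change -0.98, SE 0.16, adjusted p = 0.000294). All 4 calls held with each replicate left out in turn. The footprint decrease was larger than the RNA decrease in SH2, and the difference of -0.61 (SE 0.19) was not called by edgeR (adjusted p = 0.0795), though it was by DESeq2 (adjusted p = 0.0348). RefSeq lists an antisense gene, MAP3K20-AS1, which has no entry of its own in the table. The strand setting of the counting is not given in the sources used here, so reads of MAP3K20 and its antisense partner cannot be told apart. Other members also overlap RefSeq genes without an entry in the table. Among these are LOC105373929 (a long noncoding RNA) at EIF4E2, KCNJ13 (protein-coding) at GIGYF2 and PELO-AS1 at PELO. Their part in the counts was not tested.

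The rescue factors PELO and HBS1L act as a pair: PELO enters the empty decoding site of a stalled ribosome and HBS1L, a relative of the termination factor GSPT1, delivers it. In SH2 their RNAs were called in opposite directions. PELO RNA was at 85.4, 84.0 and 86.9 CPM in SC, at 121, 109 and 108 CPM in SH2, and at 81.0, 87.6 and 82.3 CPM in SH3. SH2 lay above the other groups, which overlapped. The change was 0.40 in SH2 (SE 0.09 by edgeR, adjusted p = 0.00111) and -0.03 in SH3 (SE 0.09, adjusted p = 0.779). HBS1L RNA was at 115, 128 and 139 CPM in SC, at 78.6, 101 and 87.8 CPM in SH2, and at 102, 114 and 121 CPM in SH3. SH2 lay below SC and SH3 overlapped it. The change was -0.51 in SH2 (SE 0.11 by edgeR, adjusted p = 0.00125) and -0.19 in SH3 (SE 0.11, adjusted p = 0.177).

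Footprints of neither PELO nor HBS1L were called in any comparison. PELO footprints were at 106, 85.5 and 89.7 CPM in SC, at 103, 110 and 103 CPM in SH2, and at 85.5, 98.3 and 98.9 CPM in SH3, all overlapping. HBS1L footprints were at 72.7, 72.9 and 73.5 CPM in SC, at 68.5, 64.8 and 75.4 CPM in SH2, and at 64.4, 79.8 and 68.0 CPM in SH3. These groups overlapped too, with changes of -0.07 (SE 0.14) and -0.04 (SE 0.14). ZNF598 and PELO were the 2 of 10 genes with RNA called higher and footprints not called higher in SH2, a pattern found in 15.1% of the 10335 genes tested in both kinds. In SH3 0 of the 10 showed it, against 15.7%. RefSeq places PELO within ITGA1, an integrin gene whose RNA change was 0.54 (edgeR adjusted p = 0.0546) in SH2 and 0.93 (adjusted p = 0.00374) in SH3. ITGA1 footprints rose by 1.51 in SH2 (edgeR adjusted p = 1.86e-05) and by 1.35 in SH3 (adjusted p = 9.59e-05). How reads of the overlap were assigned is not given in the sources used here, and the part of ITGA1 in the PELO counts was not tested.

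ASCC3, the helicase that pulls collided ribosomes apart, was not called in any of the 9 comparisons. Its RNA was at 122, 142 and 134 CPM in SC, at 115, 159 and 119 CPM in SH2, and at 138, 147 and 162 CPM in SH3. The groups overlapped, and SH2 replicate 2 was the highest of its group. ASCC3 footprints were at 94.0, 85.1 and 100 CPM in SC, at 110, 77.9 and 91.9 CPM in SH2, and at 104, 114 and 107 CPM in SH3. In SH2 that same replicate was the lowest, so SH2 spanned all of SC. SH3 footprints lay above SC by a change of 0.21 (SE 0.15, edgeR adjusted p = 0.281).

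GIGYF2 and EIF4E2, which together hold down initiation on mRNAs with collided ribosomes, were both called higher in RNA and in footprints with both hairpins. GIGYF2 RNA was at 48.7, 56.7 and 52.5 CPM in SC, at 65.7, 74.5 and 72.7 CPM in SH2, and at 79.1, 71.6 and 76.5 CPM in SH3. All hairpin libraries lay above SC. The RNA rose by 0.43 in SH2 (SE 0.10 by edgeR, adjusted p = 0.00139) and by 0.53 in SH3 (SE 0.10, adjusted p = 0.000431). GIGYF2 footprints were at 70.1, 47.6 and 59.6 CPM in SC, at 98.9, 79.7 and 91.0 CPM in SH2, and at 104, 133 and 114 CPM in SH3, with SC lowest and no overlap with it. They rose in SH2 (log2 change 0.58, SE 0.16, edgeR adjusted p = 0.00822) and reached 198% of the SC mean in SH3 (log2 change 0.97, SE 0.16, adjusted p = 0.000315).

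EIF4E2, a relative of the cap-binding initiation factor EIF4E that represses initiation, rose further. Its RNA was at 22.6, 30.2 and 24.1 CPM in SC, at 61.7, 54.6 and 62.8 CPM in SH2, and at 45.8, 39.5 and 47.0 CPM in SH3. The 3 groups did not overlap. RNA rose 2.33-fold in SH2 (log2 change 1.22, SE 0.12, edgeR adjusted p = 1.77e-06) and 1.72-fold in SH3 (log2 change 0.78, SE 0.12, adjusted p = 0.000134). EIF4E2 footprints were at 76.5, 38.3 and 45.6 CPM in SC, at 91.1, 111 and 102 CPM in SH2, and at 122, 118 and 127 CPM in SH3. SC replicate 1 was well above the other SC libraries and still below every hairpin library. Footprints rose 1.87-fold in SH2 (log2 change 0.90, SE 0.20, edgeR adjusted p = 0.00183) and 2.25-fold in SH3 (log2 change 1.17, SE 0.20, adjusted p = 0.000386). That SC library also had the highest and SC replicate 2 the lowest footprint value of GIGYF2 and of NEMF within SC. Without SC replicate 1 the translational efficiency of EIF4E2 went from -0.34 to 0.13 in SH2, and in SH3 from 0.38 to 0.85, where it was called (edgeR adjusted p = 0.03).

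NEMF and LTN1 meet on the large subunit after splitting: NEMF binds the stranded peptide-carrying transfer RNA and brings in LTN1, which ubiquitinates the peptide. NEMF RNA was at 68.0, 85.6 and 73.4 CPM in SC, at 78.4, 101 and 69.2 CPM in SH2, and at 97.6, 96.3 and 92.7 CPM in SH3. SH2 overlapped SC and SH3 lay above it. The RNA change was 0.13 in SH2 (SE 0.13 by edgeR, adjusted p = 0.39) and 0.34 in SH3 (SE 0.13, adjusted p = 0.0422). The SH3 call was lost without any of SH3 replicates 1, 2 or 3 (adjusted p = 0.131, 0.12 and 0.0907) or SC replicates 1 or 3 (0.146 and 0.114), and with DESeq2 (0.0506). NEMF footprints were at 88.3, 52.7 and 63.7 CPM in SC, at 113, 103 and 86.8 CPM in SH2, and at 102, 108 and 106 CPM in SH3. SH2 replicate 3 fell just within the SC range, and SH3 lay above it. Footprints were called higher in SH2 (log2 change 0.55, SE 0.17, edgeR adjusted p = 0.0173) and in SH3 (log2 change 0.61, SE 0.18, adjusted p = 0.013). The SH2 call was lost without SH2 replicate 1 (adjusted p = 0.0644), SC replicate 2 (0.0532) or SC replicate 3 (0.0686), and the SH3 call without SC replicate 3 (0.0547). RefSeq has NEMF overlapping KLHDC2, whose RNA rose in SH3, as NEMF RNA did, by 0.53 (edgeR adjusted p = 0.00106), while its SH2 RNA change was -0.26 (adjusted p = 0.057). The footprint change of KLHDC2 was -0.64 (edgeR adjusted p = 0.0109) in SH2 and -0.02 (adjusted p = 0.951) in SH3. The part of KLHDC2 in the NEMF counts was not tested.

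LTN1 RNA was at 60.7, 61.9 and 59.5 CPM in SC, at 43.3, 49.9 and 38.3 CPM in SH2, and at 61.0, 53.8 and 55.9 CPM in SH3. SH2 lay below both other groups. It fell by 0.47 on the log2 scale in SH2 (SE 0.11, edgeR adjusted p = 0.0016), and the SH3 change was -0.09 (SE 0.11, adjusted p = 0.487). LTN1 footprints were at 48.7, 61.9 and 44.9 CPM in SC, at 53.7, 65.7 and 48.9 CPM in SH2, and at 59.1, 53.1 and 58.2 CPM in SH3, with all groups overlapping. Its log2 footprint-to-RNA ratio, matched by replicate number, was 0.31 to 0.40 in SH2 and -0.41 to 0.00 in SC, without overlap. The translational efficiency change of 0.60 in SH2 (SE 0.19) was not called by edgeR (adjusted p = 0.0727). It was called without SC replicate 2 (adjusted p = 0.0461) and by DESeq2 (0.0209).

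**Figure D2:**
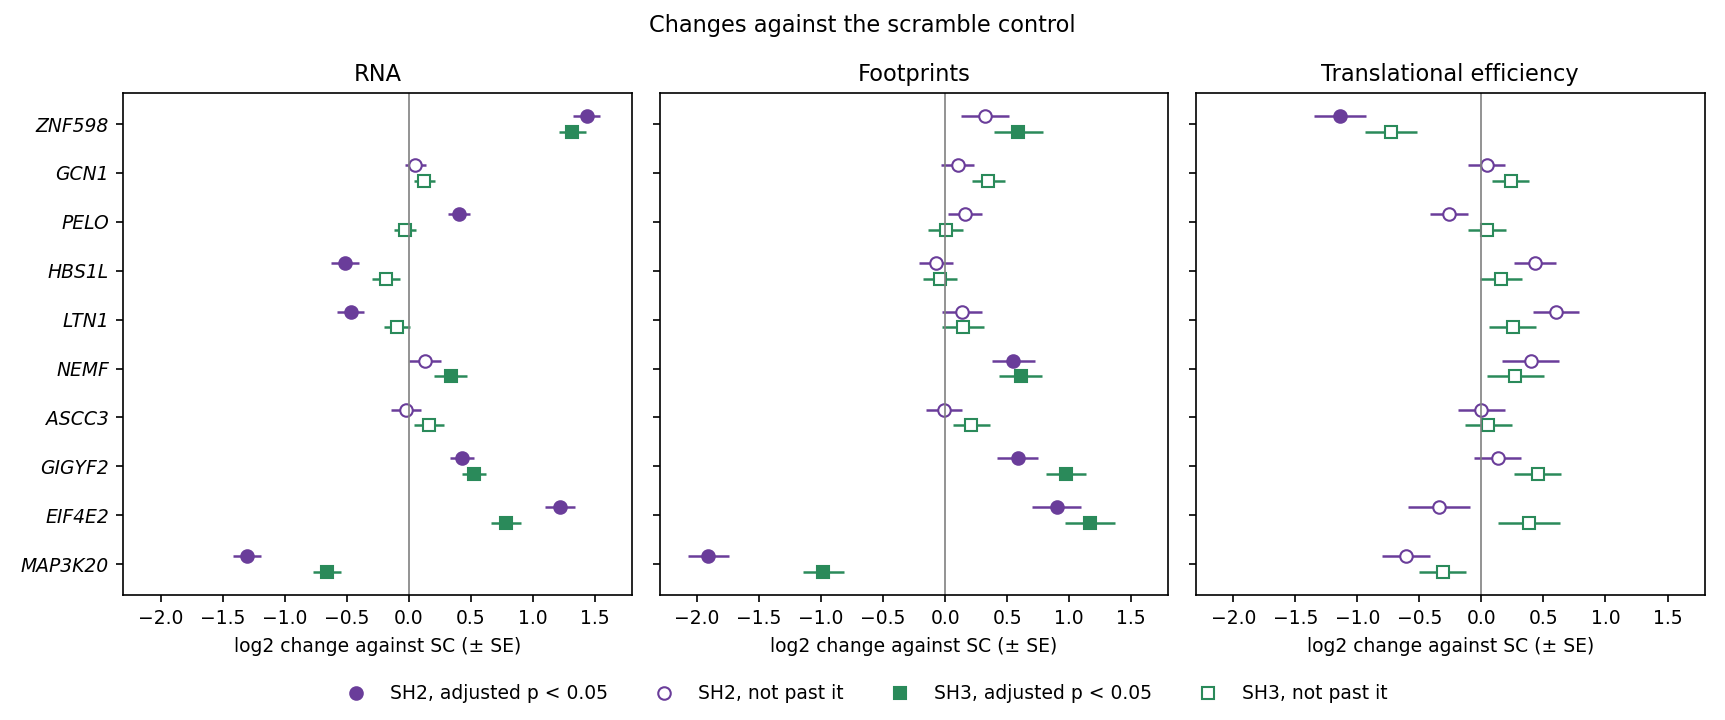
Log2 change against SC (horizontal axes, bars ± SE) of the 10 genes (vertical axis) in RNA, footprints and translational efficiency, with circles for SH2 and squares for SH3, filled where the edgeR adjusted p is under 0.05. In RNA 7 SH2 and 5 SH3 symbols are filled, in footprints 4 and 5, and in translational efficiency 1 (ZNF598 in SH2) and 0.

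Put together by direction, 3 of the 10 genes were called higher in RNA with both hairpins (ZNF598, GIGYF2 and EIF4E2) and 1 lower (MAP3K20), while 19.6% of all genes tested were higher and 18.2% lower with both. In footprints 3 were higher with both (NEMF, GIGYF2 and EIF4E2) and 1 lower (MAP3K20), beside 10.8% and 12.0% of all genes. In translational efficiency 0.686% of genes (86) were called in SH3 and 0 of the 10 by edgeR. Over all genes these 86 calls became 10 without SC replicate 3, 244 without SC replicate 1, 18, 11 and 31 without SH3 replicates 1, 2 and 3, and 355 with DESeq2. Of the 10, 2 had an unadjusted p under 0.05 there by edgeR (ZNF598 and GIGYF2), and DESeq2 called 1. The share of all genes with such an unadjusted p was not counted. The median translational efficiency change of the 10 was 0.02 in SH2 and 0.20 in SH3, beside -0.02 and -0.04 over all genes.

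**Figure D3:**
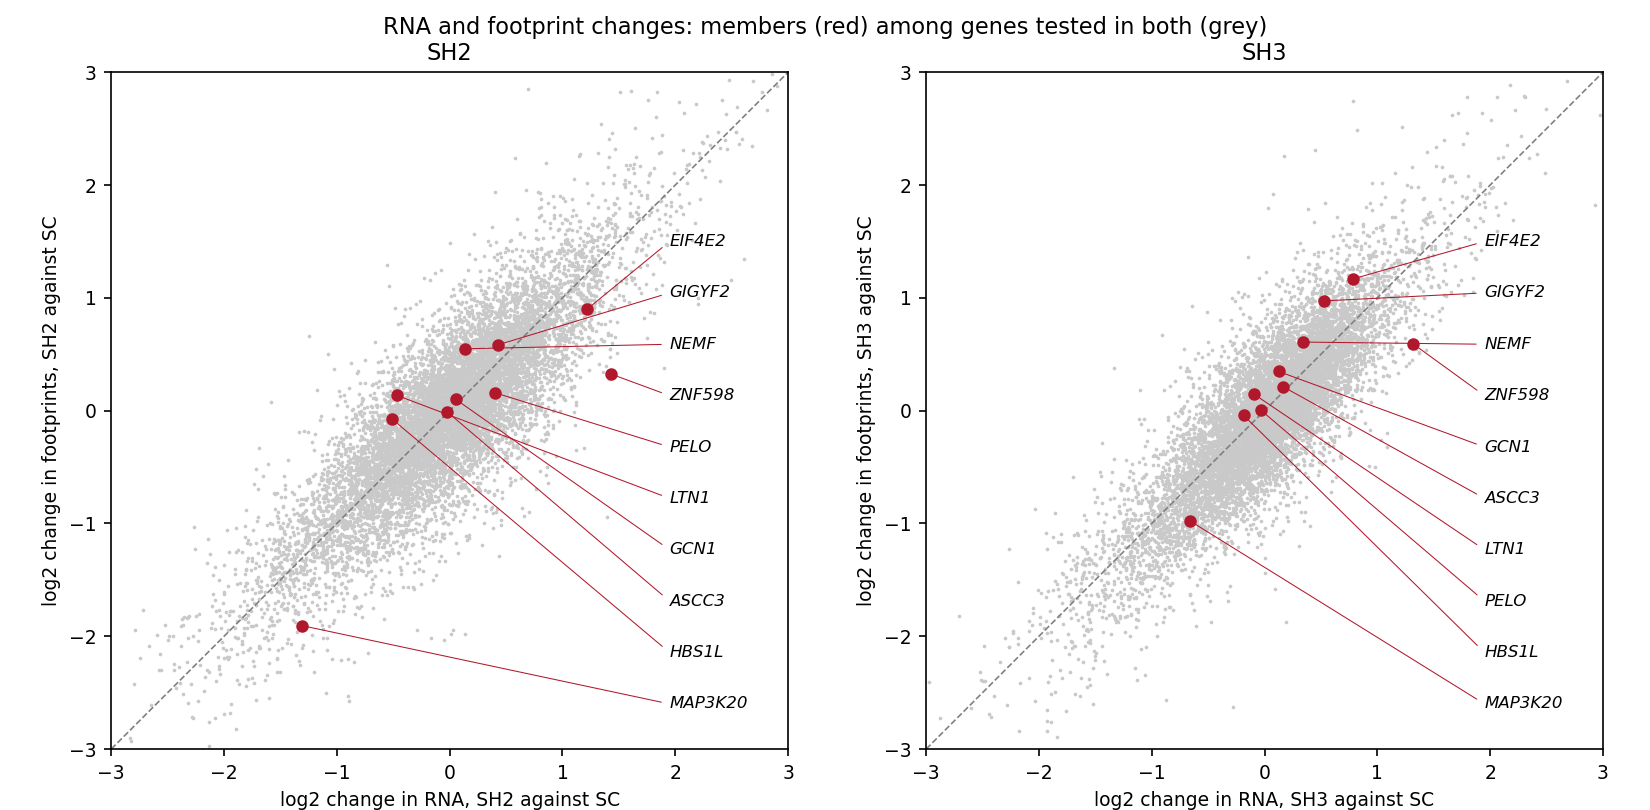
Log2 RNA change (horizontal axis) against log2 footprint change (vertical axis) in SH2 (left) and SH3 (right), for 10335 genes tested in both kinds (grey, 34 genes in SH2 and 23 in SH3 fall outside the axes) and the 10 genes (red, named). The dashed line marks equal change. ZNF598 sits below the line in both panels (RNA 1.43 and 1.32, footprints 0.32 and 0.59), EIF4E2 below it in SH2 and above it in SH3, and MAP3K20 at the lower left.

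The footprint-to-RNA ratio sets 2 counts of the same gene side by side. Which parts of a transcript were counted in each library kind is not given in the sources used here. The order of genes below is not corrected for such parts, so it is not a measure of ribosome density alone. In SC the mean log2 ratio ran from -1.95 for ZNF598 to 1.01 for EIF4E2, with a median of -0.19 over 10319 genes. HBS1L (-0.80, percentile 28.0) and ASCC3 (-0.51, percentile 37.4) followed ZNF598. LTN1 (-0.24), NEMF (-0.18) and GCN1 (-0.17) lay near the median of all genes, at percentiles 47.8 to 50.7. PELO (0.13), GIGYF2 (0.15) and MAP3K20 (0.22) were somewhat above it, at percentiles 63.4 to 67.6, and EIF4E2 stood at percentile 92.9. Neighbours in this order from HBS1L to EIF4E2 had overlapping SC replicates except for GCN1 and PELO, and those of ZNF598 lay below all others. EIF4E2 had the widest SC spread of the ratio, at 1.01 ± 0.71 (SD, n = 3), and LTN1 in SH2 the narrowest of the 10 genes and 3 treatments, at 0.35 ± 0.04 (SD, n = 3). All these ratios match IN and RPF libraries by replicate number. Deviations of matched libraries from their group means correlated by -0.49, -0.46 and 0.26 in SC and by -0.30, -0.31 and 0.50 in SH2. In SH3 they correlated by 0.42, 0.29 and 0.21. The spread of the ratios depends on this matching.

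**Figure D4:**
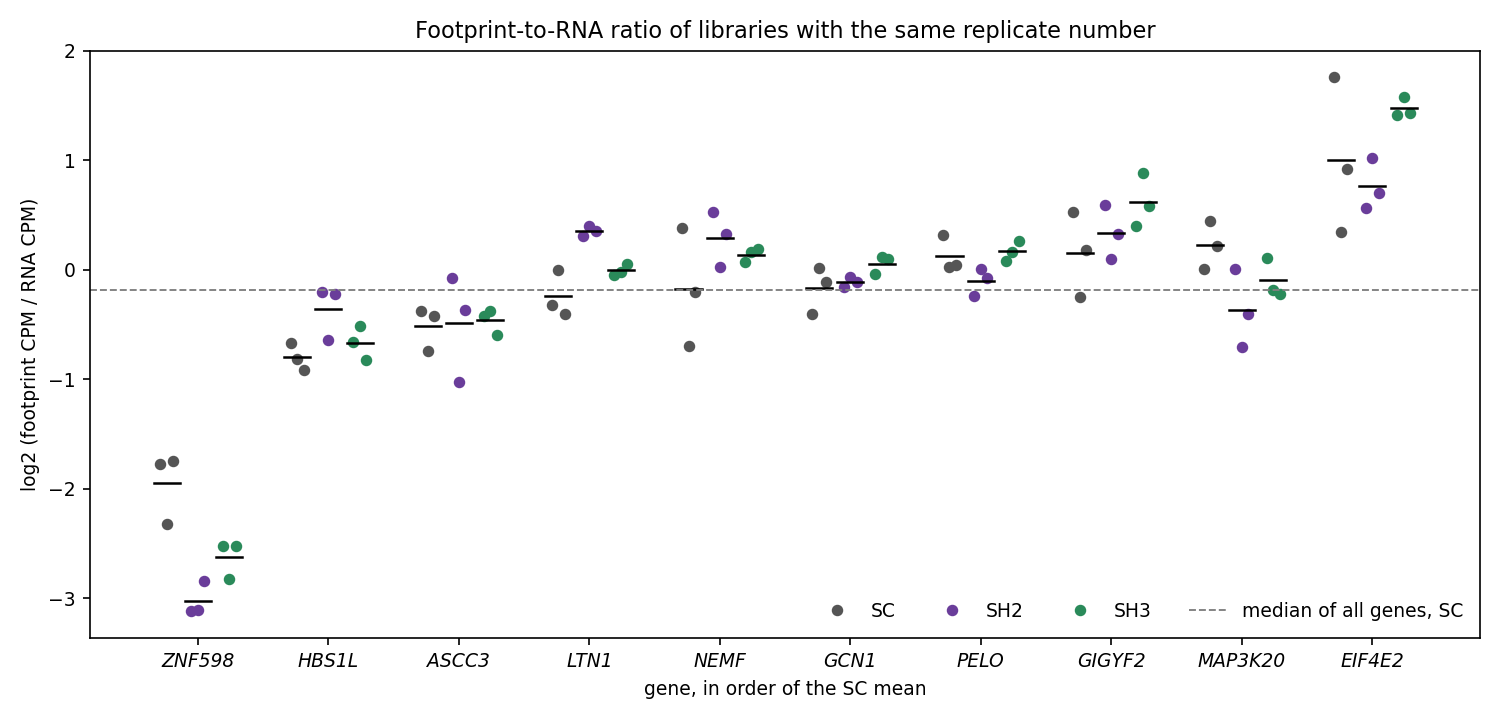
Log2 ratio of footprint to RNA CPM (vertical axis) between libraries with the same replicate number, for each gene in order of its SC mean (horizontal axis), with points for replicates, bars for group means (n = 3) and a dashed line for the SC median of all genes (-0.19). ZNF598 lies below -1.7 in every group and EIF4E2 above 0.3, and the LTN1 points of SH2 lie above its SC points.

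The hairpins were also compared with each other. In RNA 39.3% of all genes differed between SH2 and SH3, and 5 of the 10 genes did. PELO was higher in SH2 than in SH3 by 0.43 (SE 0.09, edgeR adjusted p = 0.00143) and EIF4E2 by 0.44 (SE 0.12, adjusted p = 0.0108). MAP3K20 was lower in SH2 (log2 change -0.65, SE 0.11, edgeR adjusted p = 0.000539), as were LTN1 (-0.38, SE 0.11, adjusted p = 0.0121) and HBS1L (-0.33, SE 0.11, adjusted p = 0.0322). The HBS1L call was lost without SH2 replicate 1 (adjusted p = 0.129), SH2 replicate 3 (0.0847), SH3 replicate 2 (0.0869) or SH3 replicate 3 (0.146). The LTN1 call was lost without SH2 replicate 3 (0.0559) or SH3 replicate 1 (0.0644). Without SH2 replicate 2, NEMF (0.0274) and ASCC3 (0.0226) were called lower in SH2 as well. ZNF598 and GIGYF2 differed between the hairpins by 0.12 (SE 0.11, edgeR adjusted p = 0.418) and -0.09 (SE 0.10, adjusted p = 0.46).

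In footprints 23.8% of all genes differed between the hairpins, and MAP3K20 was the 1 of the 10 genes that did (log2 change -0.93, SE 0.17, edgeR adjusted p = 0.00129). Over all genes the calls went from 2459 to 1541 without SH3 replicate 2. GIGYF2 was next, lower in SH2 by a change of -0.39 (SE 0.16, edgeR adjusted p = 0.0911). In translational efficiency 0.0160% of all genes (2) were called by edgeR and 229 by DESeq2, and 0 of the 10 by either. EIF4E2 had the single unadjusted p under 0.05 in the edgeR test (change -0.73, SE 0.25, unadjusted p = 0.00785, adjusted p = 0.227). FBL itself was not called between the hairpins by edgeR in RNA (change 0.72, SE 0.47, adjusted p = 0.242).

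Several of these proteins work in fixed pairs or beside a close relative, so their ratios within a library are given as descriptions (3 libraries against 3 cannot give a permutation p below 0.10). The RNA ratio of PELO to HBS1L was 0.674 ± 0.059 in SC (SD, n = 3), 1.29 ± 0.24 in SH2 and 0.749 ± 0.060 in SH3. SH2 lay above SC, and SH3 overlapped it. The footprint ratio of this pair overlapped between all groups, at 1.29, 1.52 and 1.34. NEMF to LTN1 was 1.25 ± 0.13 in SC RNA (SD, n = 3) and lay above that in SH2 (1.88 ± 0.13) and SH3 (1.68 ± 0.10). Its footprint ratio overlapped, at 1.36, 1.82 and 1.86. EIF4E2 to its partner GIGYF2 was 0.485 ± 0.042 in SC RNA (SD, n = 3), with all SH2 (0.845 ± 0.105) and SH3 (0.581 ± 0.031) libraries above it, and the footprint ratio again overlapped.

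The repressor EIF4E2 and the activator EIF4E compete for the same cap, and their ratio shifted in both library kinds. In RNA EIF4E2 to EIF4E was 0.250 ± 0.031 in SC (SD, n = 3), 0.933 ± 0.168 in SH2 and 0.573 ± 0.052 in SH3. In footprints it was 0.237 ± 0.072 in SC (SD, n = 3), 0.605 ± 0.049 in SH2 and 0.716 ± 0.092 in SH3. Every hairpin library lay above every SC library in both kinds, with EIF4E called lower by edgeR in RNA (log2 change -0.66 in SH2 and -0.42 in SH3). GIGYF2 to its relative GIGYF1 was 1.89 ± 0.22 in SC RNA (SD, n = 3), overlapped SC in SH2 (1.43 ± 0.28) and lay below it in SH3 (0.948 ± 0.014). HBS1L to GSPT1 was 0.636 ± 0.064 in SC RNA (SD, n = 3) and lay below that in SH2 (0.378 ± 0.044) and SH3 (0.509 ± 0.037). In footprints the direction was not the same, with 0.222 ± 0.025 in SC (SD, n = 3), SH2 above it (0.288 ± 0.046) and SH3 overlapping (0.273 ± 0.037). Each pair was chosen after its values were seen.

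The wider pathway was described with 52 partner genes in 6 lists, all of them tested. In RNA 17 were higher and 17 lower in SH2 (65.4% called) and 15 higher and 11 lower in SH3 (50%), beside 61.4% and 53.0% of all genes. In footprints 7 were higher and 15 lower in SH2 (42.3%) and 10 and 10 in SH3 (38.5%), beside 44.2% and 35.9%. These shares are near the background of each comparison.

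The list that stood lowest was the ribotoxic stress kinase cascade below MAP3K20, with 8 genes. In RNA 5 were lower and 2 higher in SH2, with a median change of -0.58, and 3 were lower and 2 higher in SH3, with a median of -0.08. MAP2K4, a kinase that activates JNK and p38, fell by 1.60 on the log2 scale in SH2 RNA (SE 0.11, edgeR adjusted p = 9.88e-08) and by 2.11 in SH2 footprints (SE 0.21, adjusted p = 2.14e-06). It was lower in SH2 than in SH3 (log2 change -1.66, edgeR adjusted p = 2.14e-07). MAPK14, which encodes p38 alpha, fell in RNA by 1.24 in SH2 (SE 0.09 by edgeR, adjusted p = 1.65e-07) and by 1.34 in SH3 (SE 0.09, adjusted p = 2.16e-07). MAPK9, a JNK gene, fell in footprints by 1.54 in SH2 (SE 0.25 by edgeR, adjusted p = 0.000158) and by 1.43 in SH3 (SE 0.26, adjusted p = 0.000575). MAP2K7, another JNK activator, moved the other way in RNA, by 0.55 in SH2 (SE 0.09 by edgeR, adjusted p = 0.000171) and 0.66 in SH3 (SE 0.09, adjusted p = 5.73e-05). MAPKAPK2, a substrate of p38, was also higher in RNA, by 0.48 and 0.52.

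Among 11 partners in collision sensing and ribosome splitting, RNA was higher for 4 and lower for 3 in SH2, and higher for 4 and lower for 1 in SH3. RACK1, the small-subunit scaffold at the collision surface, fell in RNA by 0.53 in SH2 (SE 0.11 by edgeR, adjusted p = 0.000681) and by 0.47 in SH3 (SE 0.11, adjusted p = 0.00209). MKRN1, a ubiquitin ligase, rose by 0.71 and 0.51. TRIP4, which works in the same complex as ASCC3, rose in SH3 RNA by 0.55 (SE 0.11, edgeR adjusted p = 0.000856) and in SH3 footprints by 0.70 (SE 0.16, adjusted p = 0.00298). EIF2AK4, the kinase GCN2 that GCN1 activates, fell in footprints by 0.55 in SH2 (SE 0.15 by edgeR, adjusted p = 0.00869) and by 0.67 in SH3 (SE 0.16, adjusted p = 0.00396). The SH2 value passed no longer with thinned footprints (adjusted p = 0.0532).

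Of 8 partners of NEMF and LTN1 in nascent chain quality control, 4 were higher and 3 lower in SH2 RNA, and 3 were higher in SH3 RNA. ANKZF1, which releases the stalled peptide from its transfer RNA, rose in RNA by 0.75 in SH2 (SE 0.10 by edgeR, adjusted p = 1.64e-05) and by 0.66 in SH3 (SE 0.10, adjusted p = 8.7e-05). RCHY1, a ubiquitin ligase, fell in SH2 RNA by 1.54 (SE 0.14, edgeR adjusted p = 9.34e-07) and in SH2 footprints by 1.23 (SE 0.24, adjusted p = 0.000763). It was lower in SH2 than in SH3 (log2 change -1.50 in RNA, edgeR adjusted p = 4.01e-06). TCF25, a partner of LTN1, rose in SH3 RNA by 0.88 (SE 0.13, edgeR adjusted p = 6.21e-05).

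Of 9 mRNA decay partners, 4 were higher and 2 lower in RNA with each hairpin. GIGYF1, the relative of GIGYF2, rose in RNA by 0.86 in SH2 (SE 0.12 by edgeR, adjusted p = 3.45e-05) and by 1.52 in SH3 (SE 0.12, adjusted p = 6.02e-07), and was lower in SH2 than in SH3 (log2 change -0.66, adjusted p = 0.000662). N4BP2, an endonuclease, rose by 0.50 and 0.61 in RNA. DDX6, a helicase of translational repression, rose in footprints by 1.08 in SH2 (SE 0.13 by edgeR, adjusted p = 9.89e-06) and by 0.65 in SH3 (SE 0.13, adjusted p = 0.00117). Other genes of the list were called lower by edgeR. EIF4E was lower in RNA (log2 change -0.66 in SH2 and -0.42 in SH3) and in footprints (-0.41 and -0.36). TTC37 was lower in SH2 RNA (-0.60), and WDR61 in SH3 RNA (-0.28) and SH3 footprints (-0.79).

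Of 8 ligases and deubiquitinases that act on the small subunit, 2 were higher and 3 lower in SH2 RNA, and 1 was higher and 3 lower in SH3 RNA. OTUD3, a deubiquitinase, fell in RNA by 1.15 in SH2 (SE 0.15 by edgeR, adjusted p = 1.57e-05) and by 0.65 in SH3 (SE 0.15, adjusted p = 0.00186). RNF10, a ligase of small-subunit proteins, fell in footprints by 1.19 in SH2 (SE 0.20 by edgeR, adjusted p = 0.000184) and by 0.87 in SH3 (SE 0.20, adjusted p = 0.00302). RNF25 rose in RNA by 0.58 and 0.48.

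In the list of termination and recycling, with 8 genes, RNA was higher for 1 and lower for 1 in SH2, and higher for 1 and lower for 2 in SH3. DENR, which helps recycle small subunits, fell in SH2 RNA by 1.51 (SE 0.13, edgeR adjusted p = 4.02e-07) and in SH2 footprints by 1.43 (SE 0.16, adjusted p = 6.77e-06), and was lower in SH2 than in SH3 (log2 change -1.24 in RNA, adjusted p = 6.65e-06). EIF5A, which relieves stalls at difficult residues, fell in footprints by 0.76 in SH2 (SE 0.20 by edgeR, adjusted p = 0.00648) and by 0.93 in SH3 (SE 0.20, adjusted p = 0.00233). Its SC footprints were widely spread, from 485 to 979 CPM. EIF5A RNA was also called lower in SH3 (log2 change -0.72, SE 0.11, edgeR adjusted p = 9.89e-05).

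In translational efficiency edgeR called 5 of the 52 partners in SH2 (9.62%), beside 3.90% of all genes. CNOT4 (0.98), TTC37 (0.82) and DDX6 (0.66) were higher, and RNF10 (-0.87) and GSPT1 (-0.69) were lower. Each of these calls was lost without at least 1 library. Those of CNOT4 (adjusted p = 0.105) and RNF10 (0.0662) were also lost with a block joining IN and RPF libraries of the same treatment and replicate number. TTC37 was lost without SH2 replicate 1 (adjusted p = 0.059) or SC replicate 3 (0.0719), GSPT1 without SH2 replicate 3 (0.0829) or SC replicate 3 (0.0826), and DDX6 without SH2 replicate 1 (0.0507), SH2 replicate 3 (0.0513) or SC replicate 3 (0.0525). RNF10 was lost without SH2 replicate 1 (0.094), SH2 replicate 3 (0.124), SC replicate 1 (0.0767) or SC replicate 3 (0.0557), and CNOT4 without SH2 replicate 1 (0.118), SH2 replicate 3 (0.179), SC replicate 2 (0.0851) or SC replicate 3 (0.133). In SH3 edgeR called 0 of the 52, beside 0.686% of all genes. DESeq2 called 9 of the 52 there, beside 355 genes over all 12531. In the edgeR test 14 of the 52 had an unadjusted p under 0.05, and the share of all genes with such a p was not counted.

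**Figure D5:**
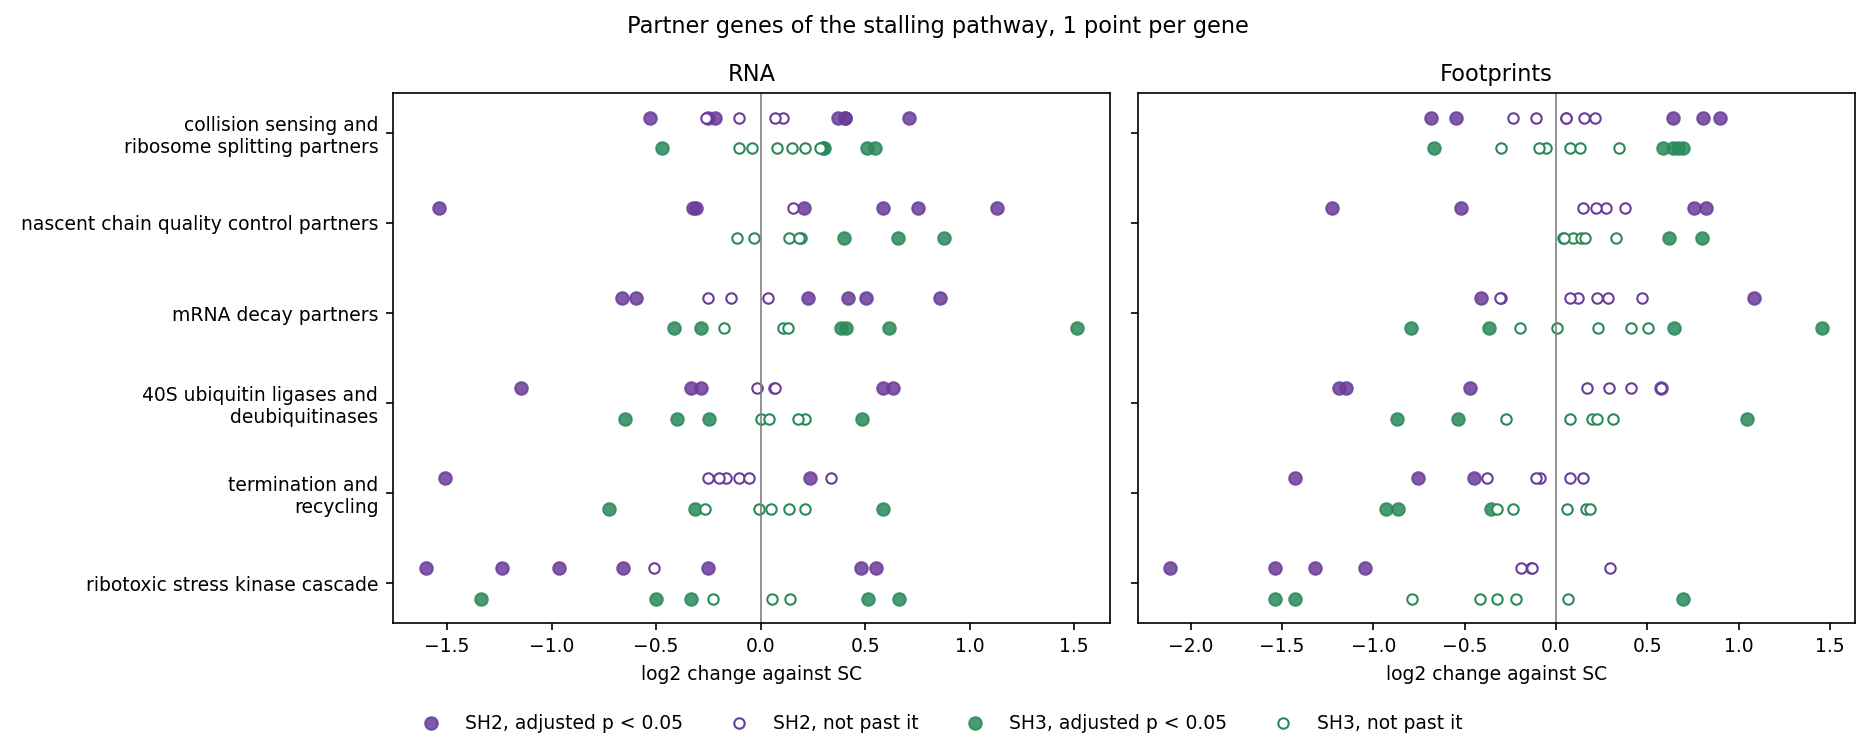
Log2 change against SC (horizontal axes) in RNA and footprints for the 52 partner genes in their 6 lists (vertical axis), with 1 point per gene, purple for SH2 and green for SH3, filled where the edgeR adjusted p is under 0.05. The kinase cascade reaches furthest to the left in SH2 (MAP2K4 at -1.60 in RNA and -2.11 in footprints).

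ZNF598, which had the largest mean RNA change among the genes called with both hairpins, was also compared with all other genes by its pattern over the 9 IN libraries. The closest were AP5B1 (Pearson r = 0.998), ARRDC2 (0.996) and MAP3K14 (0.996), on log2 CPM with a pseudocount of 0.5 CPM. The 9 libraries fall into the 3 treatment groups, so these values describe a shared group pattern and carry no test.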

How the data were processed

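The 10 genes and the partner lists were chosen with earlier results of these data known. One table of the whole series was used. The deposited count columns hold whole-number reads, with footprints apparently of 26 to 30 nucleotides from the table's label. The other deposited columns are normalized signal, log2 fold changes and p-values, per the file headers from DESeq2. They were not used for results. The deposited RD columns, a measure of the authors for the ratio, are identical for SH2 and SH3 in all 17017 genes. The submitters' processing notes name Bowtie 1.2.2 and DESeq2. Build, annotation, counting tool, strand and treatment of multiply matching reads are not given in the sources used here. No coordinates of the files were used.

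Counts were tested in edgeR 4.0.16 (R 4.3.3) with filterByExpr, TMM factors and the quasi-likelihood test, two-sided, with Benjamini-Hochberg adjustment over 12710 genes in RNA (9 libraries), 10345 in footprints (9) and 12531 in translational efficiency (18). SE is the absolute log2 change divided by the square root of F. CPM are TMM-scaled within a library kind. All 10 genes passed the filter in all 3 fits. No replicates agreed within counting noise (chi-square per degree of freedom 3.38 to 56.3). The labels do not say what a shared replicate number stands for. Deviations from the group means correlated between same-numbered SC and SH2 libraries by 0.2955 to 0.3581 in RNA and 0.2495 to 0.2966 in footprints, all 3 pairs above 0.1, so these groups were taken as paired. Pairs with SH3 ran from -0.0834 to 0.435 and -0.117 to 0.314 and were not. Same-numbered IN and RPF libraries of a treatment correlated by -0.4895 to 0.5031. The reported tests have no block, and the block was an alternative. In RNA and footprints it was a replicate effect fitted over all 9 libraries of a kind, SH3 included. A fit that pairs SC and SH2 alone was not run. In translational efficiency the block joined the IN and RPF libraries of one treatment and replicate number. The tests were also run on simulated counts for SH2 against SC, with few genes changed, a fixed dispersion and no replicate effect. Far more genes were called in the real data, so that run does not show the error rates here. Partner genes were named by rule: per list and comparison, up to 2 called genes with the largest change in each direction. Alternatives were no filter, DESeq2 size factors, library totals, DESeq2 1.42.0, the compared groups alone, replicate blocks, each replicate left out, a threshold of 0.01 and thinned footprints.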

Additional observations from a re-analysis of the deposited data

Results flagged for a closer look

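In 6 cases the test between the hairpins called a difference between SH2 and SH3. In RNA 50% of the genes described here were called, beside 39.3% of all genes tested. In footprints 10% were called, beside 23.8%. Differences between the hairpins were thus common over all genes and not particular to these. MAP3K20 was lower in SH2 than in SH3 in RNA (log2 change -0.65) and in footprints (-0.93). LTN1 (-0.38) and HBS1L (-0.33) were lower in SH2 in RNA, and PELO (0.43) and EIF4E2 (0.44) were higher there. Both calls of MAP3K20 and those of PELO and EIF4E2 held with each replicate left out, while those of LTN1 and HBS1L did not. Beside these stands the level of FBL, for which a difference between the hairpins in RNA was not called by edgeR (log2 change 0.72, adjusted p = 0.242). Its part in these differences was not tested.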

How the results depend on the processing

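Over 90 gene-by-comparison values of the 10 genes and 1230 alternative values, 1141 kept direction and call, 28 lost a call, 16 gained one and 45 changed sign, and 0 of the 28 called values changed sign. Library totals in place of TMM factors moved the median RNA change of all genes to 0.11 in SH2 (0.01 with TMM) and 0.12 in SH3 (0.03 with TMM).

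With a replicate block no call of the 10 genes changed in SH2 RNA or footprints, the comparison whose libraries are paired by number. That block was fitted over SC, SH2 and SH3 together, so it does not show the effect of pairing SC and SH2 alone. In the comparisons with SH3, whose libraries share only a number, 6 of the 10 genes were called with the block in SH3 footprints in place of 5, through GCN1. The other 8 counts did not move (7, 5 and 5 in RNA, 4 and 1 in footprints, 1, 0 and 0 in translational efficiency).

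The larger moves in counts of genes called are listed here, and where no value shows it the cause was not tested. Smaller moves among the 10 genes also occurred. Over all alternatives SH3 RNA (5) ran from 4 to 6 and SH2 footprints (4) from 3 to 4. With a replicate left out SH3 footprints (5) ran from 4 to 6. RNA between hairpins went from 5 to 2 at a threshold of 0.01 and from 3 to 7 with a replicate left out (3 without SH2 replicate 3). SH3 footprints went from 5 to 3 at 0.01, and footprints between hairpins from 1 to 2 with the compared groups alone. Over all genes, the 489 translational efficiency calls of SH2 became 184 with the compared groups alone, 191 with the replicate block, 100 at 0.01 and 241 with thinned footprints. The 86 calls of SH3 became 46, 23 and 13 under the first 3 of these. Between hairpins the 2 calls became 36 with the compared groups alone, 35 with no filter, 1 with thinned footprints, 0 with the replicate block or at 0.01, and 0 to 1 with a replicate left out. At 0.01 SH3 footprint calls went from 3719 to 2304, and between hairpins those in RNA from 4993 to 3152 and in footprints from 2459 to 1301. Among the 10 genes, translational efficiency in SH2 went from 1 to 2 with library totals, 3 with DESeq2, 0 with thinned footprints, and 1 to 2 with a replicate left out (2 without SC replicate 2). In SH3 it went from 0 to 1 with DESeq2, and 0 to 1 with a replicate left out (1 without SC replicate 1).

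Values that changed sign were not called, before or after the change. With library totals they were ASCC3 SH2 RNA (0.066), PELO SH3 RNA (0.057), HBS1L SH3 footprints (0.029) and GCN1 SH2 translational efficiency (-0.031). With thinned footprints they were HBS1L (0.055) and PELO (-0.027) in SH3 footprints and LTN1 footprints between hairpins (0.0148). ASCC3 SH2 footprints became 0.00040 with DESeq2 size factors and 0.00080 with the compared groups alone. ASCC3 SH2 translational efficiency became 0.0013 with DESeq2 size factors, 0.00020 with DESeq2, 0.0012 with the compared groups alone and 0.0058 with the replicate block.

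With single replicates left out, RNA changes in SH2 ran from -0.19 to 0.062 for ASCC3, -0.044 to 0.23 for NEMF and -0.024 to 0.10 for GCN1. Footprint changes ran from -0.13 to 0.12 for ASCC3 in SH2, and in SH3 from -0.13 to 0.030 for HBS1L and -0.048 to 0.12 for PELO. Between hairpins they ran from -0.14 to 0.086 for LTN1, -0.10 to 0.067 for HBS1L and -0.14 to 0.043 for NEMF. Translational efficiency in SH2 ran from -0.22 to 0.27 for ASCC3, -0.053 to 0.12 for GCN1, -0.65 to 0.13 for EIF4E2 and -0.052 to 0.35 for GIGYF2, in SH3 from -0.066 to 0.13 for ASCC3 and -0.014 to 0.17 for PELO, and between hairpins from -0.27 to 0.22 for ASCC3. FBL between hairpins ran from -0.25 to 1.18 in RNA, -0.35 to 1.56 in footprints and -0.12 to 0.74 in translational efficiency.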
